A study of Mus musculus with 24 samples.

Results

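A set of 9 genes of the early mouse embryo was followed through the RNA fractions of 2 pluripotent cell states: the 4 Dppa genes Dppa2, Dppa3, Dppa4 and Dppa5a, and Tcl1, Tdh, Utf1, Spic and Jam2. They were taken by symbol from the deposited gene tables, in which all 9 were found among 29759 genes. RNA came from cultures of E14, an established mouse embryonic stem cell line. Epiblast-like cells (EpiLC) had been grown for 3 days in N2B27 medium with 20 ng/ml activin A and 12 ng/ml bFGF, and naive embryonic stem cells (nESC) in N2B27 with the MEK inhibitor PD0325901, the GSK3 inhibitor CHIR99021 and LIF. Chromatin, nucleoplasm and cytoplasm fractions and whole cells (total) of each state gave 3 libraries each of ribosome-depleted RNA, 24 in all. Levels are in FPKM, fragments scaled to transcript length and to the size of the library. All groups come from 1 cell line, and whether the 3 replicates were grown apart is not stated in the labels. The p-values therefore reflect variation among these libraries only, part or all of which may be technical.

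DPPA stands for developmental pluripotency associated, a name given to genes found for their expression in pluripotent cells rather than for shared descent. DPPA2 and DPPA4 are partner proteins with a SAP domain that bind DNA together, support genes of the 2-cell stage in mouse cells and keep a class of developmental promoters free of DNA methylation. DPPA3 (Stella) protects the maternal genome after fertilization and holds back the maintenance methylation factor UHRF1, and DPPA5A is a KH-domain RNA-binding protein. TCL1 enhances the kinase AKT, and TDH is the mitochondrial threonine dehydrogenase on which mouse embryonic stem cells depend for glycine and acetyl-CoA. UTF1 is a chromatin protein and a classic target of OCT4 and SOX2. SPIC is an ETS transcription factor best known from red pulp macrophages, and JAM2 is a tight junction adhesion molecule best known from endothelium.

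The state labels were met by their markers. Summed over 8 formative markers, total RNA held 1044 to 1091 FPKM in EpiLC and 33.3 to 35.6 FPKM in nESC. The 10 naive markers summed to 42.6 to 46.0 FPKM in EpiLC and 955 to 983 FPKM in nESC. The chromatin and cytoplasm labels were met as well. The 6 nuclear RNAs summed to 4246 to 6314 FPKM in EpiLC chromatin against 230 to 409 FPKM in EpiLC cytoplasm, and to 4875 to 5981 FPKM in nESC chromatin against 204 to 217 FPKM in nESC cytoplasm. In nucleoplasm they summed to 1741 to 1975 FPKM in EpiLC, but ran from 200 to 4015 FPKM between the nESC libraries. This list therefore does not set every nESC nucleoplasm library apart from cytoplasm. Steps between low values put 24.3 to 48.5 fragments behind 1 FPKM of a 2 kb transcript in chromatin and cytoplasm libraries and 63.6 to 94.2 in nucleoplasm and total libraries.

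The promoters of 3 members are shown, the only ones with entries in the RefSeq promoter table (GRCm38.p6). They are those of Tcl1, Utf1 and Spic, and a link between their letters and the RNA levels was not tested. The 250 bases before each start follow, 5′ to 3′ on the gene's strand. These RefSeq starts differ from the GENCODE gene spans given with the levels: the Spic window lies inside that span and the other two overlap its beginning. Capitals mark GC boxes, the letters GGGCGG on either strand.
Tcl1 (chr12:105222738-105222987, minus strand): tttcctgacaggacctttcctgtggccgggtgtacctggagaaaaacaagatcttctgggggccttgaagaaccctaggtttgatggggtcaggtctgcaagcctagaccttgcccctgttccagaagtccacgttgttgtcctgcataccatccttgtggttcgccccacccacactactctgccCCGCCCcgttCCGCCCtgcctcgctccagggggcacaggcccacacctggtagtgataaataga
Utf1 (chr7:139943606-139943855, plus strand): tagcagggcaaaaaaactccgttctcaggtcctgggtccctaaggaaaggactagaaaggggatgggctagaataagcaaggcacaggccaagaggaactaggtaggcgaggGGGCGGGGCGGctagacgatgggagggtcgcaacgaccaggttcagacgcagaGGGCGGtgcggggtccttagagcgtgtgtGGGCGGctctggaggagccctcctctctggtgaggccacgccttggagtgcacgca
Spic (chr10:88683024-88683273, minus strand): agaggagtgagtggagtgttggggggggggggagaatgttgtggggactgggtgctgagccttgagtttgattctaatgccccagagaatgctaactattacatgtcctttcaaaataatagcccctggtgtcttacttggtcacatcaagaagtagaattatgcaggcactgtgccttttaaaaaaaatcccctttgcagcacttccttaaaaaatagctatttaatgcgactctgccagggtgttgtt
The Tcl1 window holds 2 GC boxes and 7 CG dinucleotides, and the Utf1 window 4 boxes, of which 2 overlap by 1 base, and 14 CG. In the Spic window there is no GC box and 1 CG. A GC box was found in 32.7% of 32851 promoters of that length, and the median promoter had 6 CG. None of the 3 windows has the octamer ATGCAAAT on either strand (1.60% of promoters), the ESRRB motif TCAAGGTCA (0.387%), TATAAA (12.4%) or the E box CACGTG (6.02%), which says only that these letters are not in these windows.

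**Figure D1:**
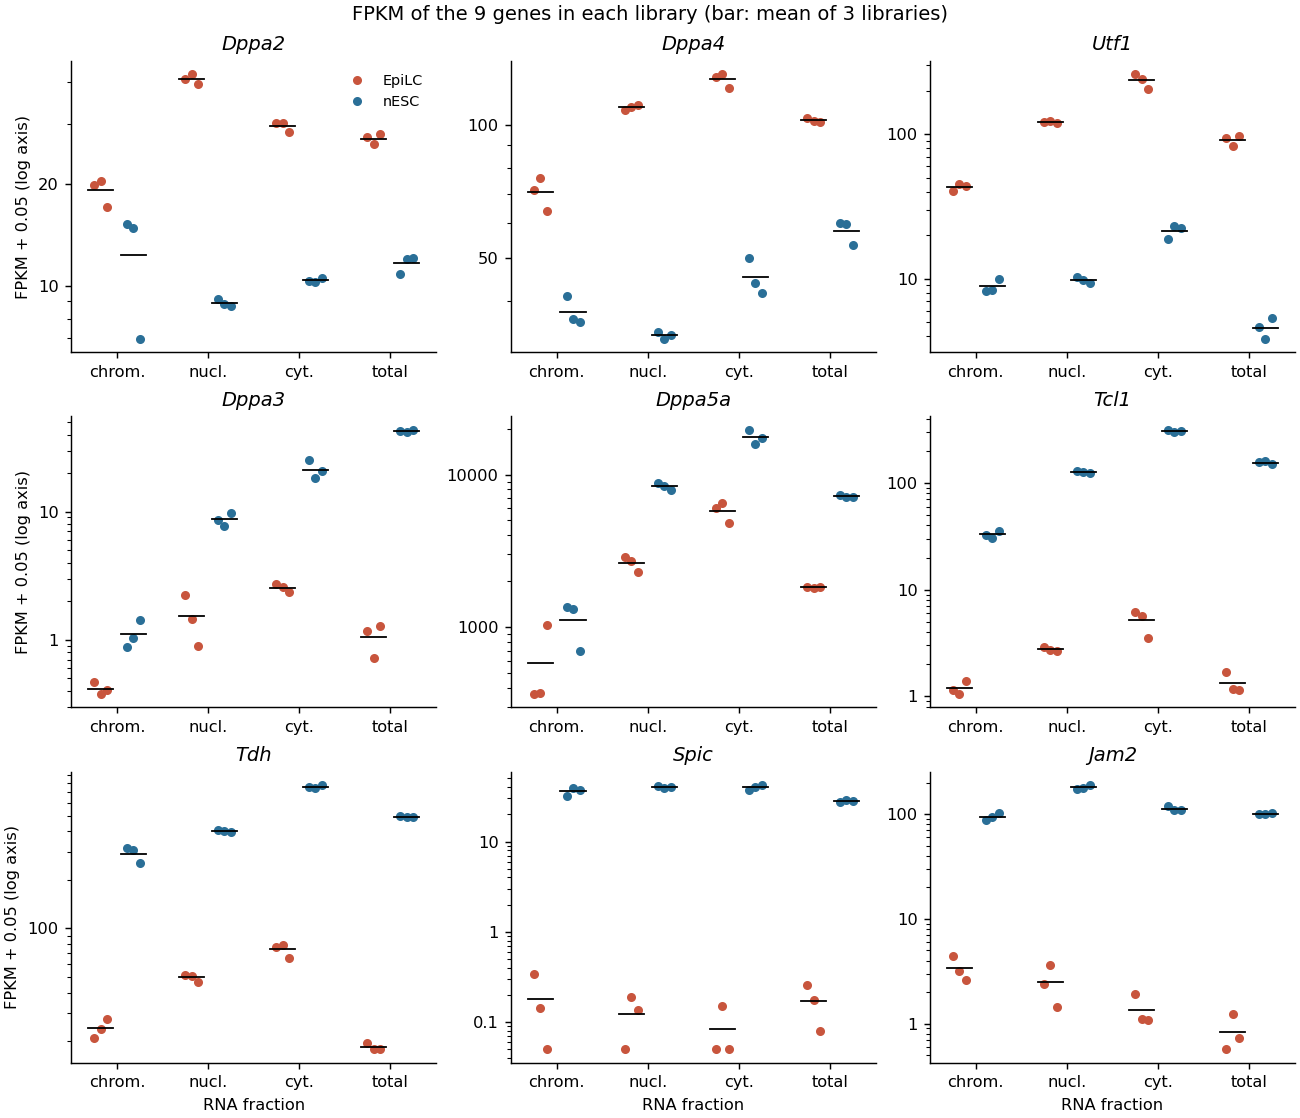
FPKM of each gene in every library (log axes, 0.05 added so that values of 0 can be drawn), by RNA fraction, EpiLC to the left of nESC. Points are libraries and bars are means of 3. Dppa2, Dppa4 and Utf1 are higher in EpiLC in all 4 kinds of RNA, and the other 6 are higher in nESC, with Dppa5a in chromatin the only panel position where the states overlap.

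The 9 genes parted between the states. In total RNA 2 were at least 2-fold higher in EpiLC without overlap, Utf1 and Dppa2, and 6 were at least 2-fold lower, Dppa3, Dppa5a, Tcl1, Tdh, Spic and Jam2. Of 13227 genes with at least 1 FPKM in a state, 35.2% differed by the same rule, 20.7% higher and 14.5% lower. Cytoplasm and nucleoplasm each gave 3 members higher and 6 lower, where 30.2% of all genes differed in cytoplasm (16.6% higher, 13.6% lower) and 31.5% in nucleoplasm (16.5% higher, 15.1% lower). Chromatin gave 1 higher and 5 lower, where 26.2% differed (14.7% higher, 11.5% lower). The table of each state was normalized on its own, so these levels are a description with no test, and the median log2 ratio over all genes lay between 0.01 and 0.14 in the 4 kinds of RNA as deposited. In bulk RNA, fewer cells that express a gene and less RNA per cell cannot be told apart.

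Utf1 (ENSMUSG00000047751.9, chr7:139943789-139945112, mm10, plus strand, 2 exons) had the largest EpiLC-to-nESC ratio of the 3 genes that were higher, in each kind of RNA. Total RNA held 93.9, 82.8 and 96.4 FPKM in the EpiLC libraries and 4.57, 3.79 and 5.28 FPKM in the nESC libraries, a 20.0-fold higher mean. Cytoplasm held 259, 242 and 204 FPKM in EpiLC and 18.6, 23.2 and 22.2 FPKM in nESC. The states stood well apart in every fraction. In chromatin Utf1 held 40.1, 45.3 and 43.7 FPKM in EpiLC and 8.22, 8.26 and 9.93 FPKM in nESC, a 4.88-fold difference. Nucleoplasm averaged 121 ± 1.71 FPKM in EpiLC and 9.74 ± 0.486 FPKM in nESC (SD, n = 3 each). Within EpiLC the order was cytoplasm, nucleoplasm, total, chromatin with no overlap. Within nESC total RNA came last, below chromatin, and nucleoplasm and chromatin overlapped.

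Dppa2 and Dppa4 are neighbours on chromosome 16, with 9670 bp between the end of Dppa4 (chr16:48283733-48294237) and the start of Dppa2 (chr16:48303908-48319723), both on the plus strand. Dppa4 (ENSMUSG00000058550.14) was the more abundant per length, with 104, 102 and 102 FPKM in EpiLC total RNA and 60.1, 59.6 and 53.4 FPKM in nESC total RNA. Dppa2 (ENSMUSG00000072419.4) held 27.4, 26.1 and 28.0 FPKM in EpiLC total RNA and 10.8, 12.0 and 12.0 FPKM in nESC total RNA. Both were higher in EpiLC without overlap in every kind of RNA. The largest difference of both was in nucleoplasm, where Dppa2 averaged 40.7 ± 1.33 FPKM in EpiLC and 8.87 ± 0.226 FPKM in nESC (log2 ratio 2.20) and Dppa4 averaged 110 ± 1.64 FPKM in EpiLC and 33.5 ± 0.643 FPKM in nESC (1.71). The smallest difference of Dppa2 was in chromatin, where it held 19.8, 20.4 and 17.1 FPKM in EpiLC and 15.2, 14.8 and 6.93 FPKM in nESC, the third nESC library lying well below the other two, and the log2 ratio of 0.63 was 0.35 without it. Dppa4 chromatin held 71.4, 75.8 and 63.9 FPKM in EpiLC and 40.9, 36.4 and 35.9 FPKM in nESC (0.90). Within EpiLC Dppa2 was highest in nucleoplasm, then cytoplasm, total and chromatin, and Dppa4 in cytoplasm, then nucleoplasm, total and chromatin, with no overlap. Within nESC the order of Dppa2 was chromatin, total, cytoplasm and nucleoplasm, of which chromatin and total overlapped, and that of Dppa4 was total, cytoplasm, chromatin and nucleoplasm without overlap. The smallest difference of Dppa4 was in total RNA, at 0.83, short of 2-fold, and reached 1.05 when libraries were scaled to a common sum.

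Dppa3 (ENSMUSG00000046323.8, chr6:122626410-122630272, plus strand) differed more between the states in total RNA than in any fraction. Total RNA held 1.11, 0.672 and 1.23 FPKM in EpiLC and 42.8, 42.2 and 43.6 FPKM in nESC, 42.6-fold lower in EpiLC. Cytoplasm held 2.68, 2.55 and 2.29 FPKM in EpiLC and 25.1, 18.2 and 20.6 FPKM in nESC, 8.50-fold lower. No values of the states overlapped. Nucleoplasm held 2.18, 1.39 and 0.849 FPKM in EpiLC and 8.53, 7.71 and 9.76 FPKM in nESC. Chromatin held 0.413, 0.325 and 0.354 FPKM in EpiLC, an estimated 6 to 8 fragments a library, and 0.832, 0.987 and 1.37 FPKM in nESC, an estimated 11 to 23. Its order in EpiLC was cytoplasm, nucleoplasm, total and chromatin, with nucleoplasm and total overlapping, and in nESC total, cytoplasm, nucleoplasm and chromatin. In nESC the total RNA level was 2.02 times the highest fraction, a ratio that 0.477% of 12592 genes reached, while 13.9% had a total above every fraction. In EpiLC the same ratio for Dppa3 was 0.402.

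Dppa3 is also a gene of primordial germ cells. The 8 markers of those cells summed to 24.9 to 25.6 FPKM in EpiLC total RNA, with 5 of 8 at 1 FPKM or more, and to 53.0 to 56.5 FPKM in nESC total RNA, with 7 of 8, and their part in the Dppa3 level was not tested.

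Dppa5a (ENSMUSG00000060461.5, chr9:78367052-78368177, minus strand) was the most abundant member, and its ratio between the states was the smallest of the 6 genes that were lower. Total RNA held 1843, 1806 and 1842 FPKM in EpiLC and 7303, 7159 and 7124 FPKM in nESC, 3.93-fold lower in EpiLC. Cytoplasm held 6066, 6488 and 4838 FPKM in EpiLC and 19706, 15807 and 17248 FPKM in nESC. Every EpiLC library lay below every nESC library in both. Nucleoplasm averaged 2629 ± 313 FPKM in EpiLC and 8354 ± 467 FPKM in nESC (SD, n = 3 each). Only chromatin overlapped, with 363, 369 and 1024 FPKM in EpiLC and 1350, 1320 and 692 FPKM in nESC. There the third EpiLC library was high and the third nESC library low, and the log2 ratio of -0.94 became -1.61 without the EpiLC library and -1.19 without the nESC one. In both states the order was cytoplasm, nucleoplasm, total and chromatin without overlap.

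Tcl1 (ENSMUSG00000041359.14, chr12:105216750-105222793, minus strand) was 120-fold lower in EpiLC total RNA, with 1.65, 1.13 and 1.09 FPKM in EpiLC and 157, 160 and 149 FPKM in nESC. Cytoplasm held 6.15, 5.66 and 3.46 FPKM in EpiLC and 316, 299 and 303 FPKM in nESC. Chromatin held 1.09, 0.998 and 1.33 FPKM in EpiLC and 32.8, 30.2 and 35.5 FPKM in nESC. The states differed by a log2 ratio of -4.85 in chromatin, -5.54 in nucleoplasm, -5.91 in cytoplasm and -6.91 in total RNA, and no libraries overlapped. Nucleoplasm averaged 2.72 ± 0.111 FPKM in EpiLC and 126 ± 3.85 FPKM in nESC (SD, n = 3 each). Cytoplasm was highest and chromatin lowest in both states, and total and chromatin overlapped in EpiLC.

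Tdh (ENSMUSG00000021953.14, chr14:63492347-63509092, minus strand) was 27.1-fold lower in EpiLC total RNA, with 19.3, 17.8 and 17.7 FPKM in EpiLC and 498, 494 and 492 FPKM in nESC. The fractions differed by less. Cytoplasm held 76.8, 79.3 and 65.7 FPKM in EpiLC and 750, 748 and 776 FPKM in nESC, 10.3-fold lower. Chromatin held 20.7, 23.8 and 27.5 FPKM in EpiLC and 316, 305 and 253 FPKM in nESC, 12.1-fold lower. Nucleoplasm averaged 49.6 ± 2.57 FPKM in EpiLC and 403 ± 4.02 FPKM in nESC, 8.12-fold lower. Tdh stood lowest in total RNA within EpiLC, below chromatin, but second to cytoplasm within nESC.

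Spic (ENSMUSG00000004359.16, chr10:88674772-88685015, minus strand) came close to 0 in EpiLC. Its EpiLC total RNA held 0.207, 0.128 and 0.0294 FPKM, an estimated 5 to 26 fragments a library, and its nESC total RNA 27.6, 28.8 and 28.3 FPKM. In EpiLC chromatin 1 library was listed at 0 and the others at 0.295 and 0.0927 FPKM, against 32.2, 39.1 and 37.3 FPKM in nESC chromatin. Nucleoplasm had 1 EpiLC library at 0 and cytoplasm 2, with no EpiLC value above 0.139 FPKM in either, against 36.7 to 42.2 FPKM in the nESC libraries of both. The nESC libraries of Spic were alike across fractions, with total lowest and neighbouring levels of the other 3 overlapping. Red pulp macrophages are the cells best known for Spic, and their markers were low. The 8 markers summed to 2.97 to 3.27 FPKM in EpiLC total RNA, with Mertk alone at 1 FPKM or more, and to 0.888 to 2.95 FPKM in nESC total RNA, with none. In the fractions no library summed to more than 4.91 FPKM. There Mertk reached 1 FPKM in EpiLC chromatin and in nucleoplasm of both states, and Spi1 in nESC cytoplasm.

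Jam2 (ENSMUSG00000053062.15, chr16:84774123-84825928, plus strand, 10 exons) was 128-fold lower in EpiLC total RNA, with 0.517, 1.18 and 0.677 FPKM in EpiLC and 100.1, 99.6 and 104 FPKM in nESC. Chromatin held 4.37, 3.16 and 2.54 FPKM in EpiLC and 87.9, 94.4 and 103 FPKM in nESC, 28.3-fold lower. Nucleoplasm held 2.34, 3.56 and 1.40 FPKM in EpiLC and 175, 179 and 191 FPKM in nESC, the highest Jam2 level of that state. In EpiLC all neighbouring levels overlapped in the order chromatin, nucleoplasm, cytoplasm and total. The 8 endothelial markers summed to 72.7 to 78.6 FPKM in EpiLC total RNA and to 70.6 to 81.0 FPKM in nESC total RNA, with Pecam1, Tek and Egfl7 the 3 at 1 FPKM or more in both.

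**Figure D2:**
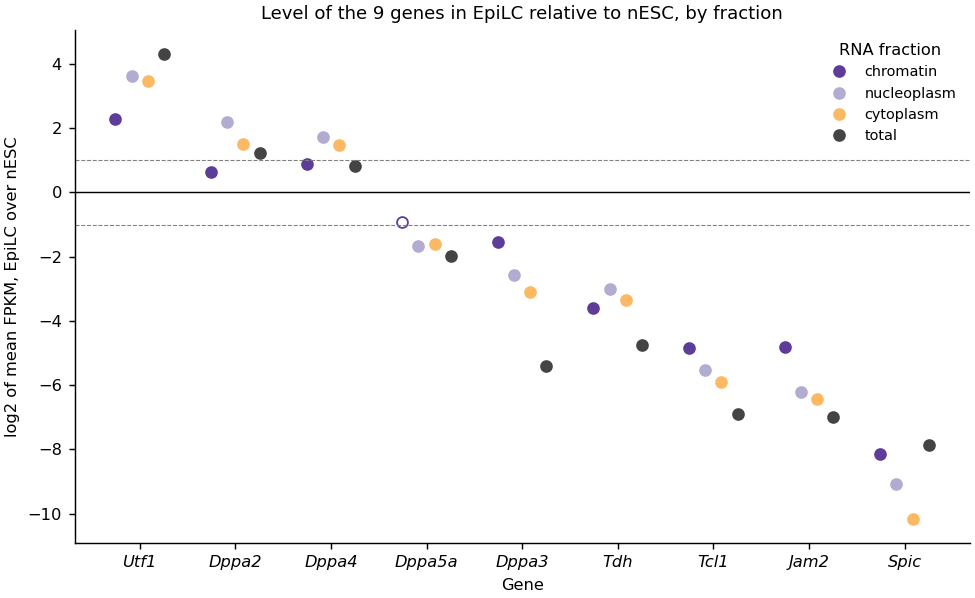
Log2 of the ratio of mean FPKM, EpiLC over nESC, for each gene in 4 kinds of RNA. Filled points have no overlap between 3 and 3 libraries, the open point overlaps, and dashed lines mark 2-fold. Tcl1, Jam2 and Dppa3 have larger differences in the order chromatin, nucleoplasm, cytoplasm and total RNA, while Utf1 lies between 2.29 in chromatin and 4.32 in total RNA.

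As deposited, most members had a higher FPKM in cytoplasm than in chromatin in both states, and several of these calls depend on the processing. Such folds compare levels within libraries, not amounts of RNA per cell. Folds below are log2 folds of FPKM + 0.5 from limma, and a call needs both a 2-fold difference and a p under 0.05 after Benjamini-Hochberg adjustment over all genes. In EpiLC 8 members passed the filter of 1 FPKM on average and Spic did not. Chromatin RNA was lower than cytoplasm RNA for 5 of the 8 (Dppa3, Dppa5a, Tcl1, Tdh, Utf1) and higher for Jam2, where 57.6% of 12834 genes were called, 28.4% lower and 29.1% higher. In nESC chromatin RNA was lower for the same 5 of 9 members and higher for none, where 61.5% of 12592 genes were called, 29.7% lower and 31.8% higher. The median fold of the members was -1.67 in EpiLC against -0.001 for all genes, and -1.23 in nESC against 0.04 for all genes.

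These directions depend on the scale of a library, because the FPKM sums ran from 432706 to 1980223. With each library scaled to a common sum, the median log2 fold of all genes for chromatin against cytoplasm became 1.69 in EpiLC and 1.85 in nESC, and 92.7% and 91.8% of calls were higher, against 50.6% and 51.7% as deposited. Dppa5a stayed lower in chromatin under that scaling, at -1.64 in EpiLC and -2.06 in nESC, as did Dppa3 (-2.13) and Tcl1 (-1.24) in nESC. Tdh turned to 0.21 in EpiLC and 0.59 in nESC, and Utf1 to 0.67 in nESC, while Dppa3, Tcl1 and Utf1 in EpiLC kept their sign but missed 2-fold. With a correction for exonic length and GC content, the EpiLC calls of Tcl1 (-0.43) and Tdh (-0.51) and the nESC calls of Tdh (-0.22) and Utf1 (0.46) were lost, and the median of the members was -0.48 in EpiLC and -0.61 in nESC. Percentiles beside the folds give the place of a gene among all folds as deposited.

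**Figure D3:**
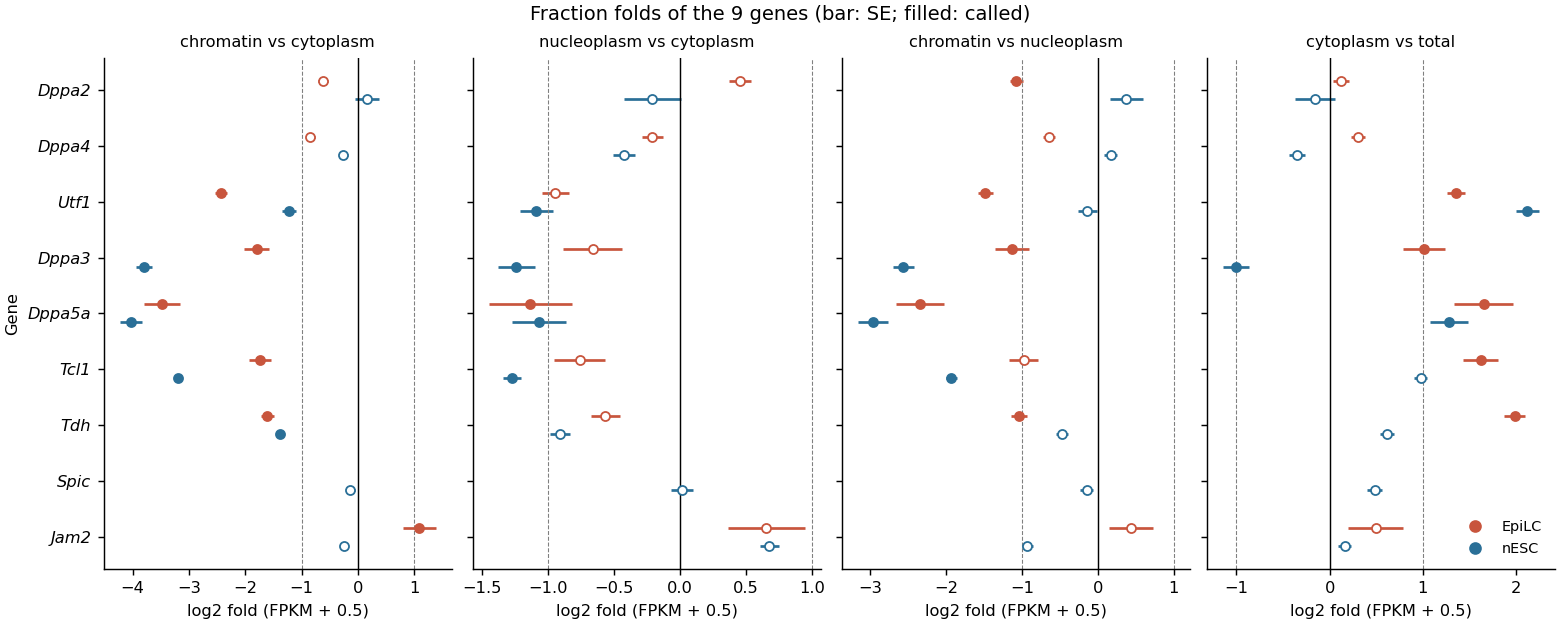
Log2 folds of the 9 genes in 4 comparisons of RNA fractions, EpiLC above nESC (Spic was tested in nESC only). Bars are standard errors, filled points were called and dashed lines mark 2-fold. Dppa5a has the lowest fold of chromatin against cytoplasm in both states, and as deposited Dppa2, Dppa4 and Spic are called in no comparison with cytoplasm.

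Dppa5a had the strongest cytoplasmic balance, with a chromatin-to-cytoplasm fold of -3.48 ± 0.31 in EpiLC (SE, adjusted p = 3.33e-07, limma) and -4.03 ± 0.20 in nESC (adjusted p = 4.45e-10), the 1.01 and 0.945 percentiles of all genes. Without EpiLC chromatin library 3, the high one, the EpiLC fold was -3.97. In nESC Dppa3 followed at -3.80 ± 0.14 (adjusted p = 2.35e-11, percentile 1.47) and Tcl1 at -3.20 ± 0.07 (adjusted p = 3.65e-13, percentile 3.65). In EpiLC the same genes were nearer to the middle, Dppa3 at -1.80 ± 0.22 (adjusted p = 7e-06, percentile 14.9) and Tcl1 at -1.74 ± 0.19 (adjusted p = 2.12e-06, percentile 15.7). The EpiLC chromatin values of Dppa3, 0.325 to 0.413 FPKM, lie under the 0.5 FPKM added before the log, which draws its EpiLC fold toward 0. Utf1 ran the other way, at -2.43 ± 0.10 in EpiLC (adjusted p = 3.29e-10, percentile 7.92) and -1.23 ± 0.12 in nESC (adjusted p = 6.43e-07, percentile 25.5). Tdh was at -1.61 ± 0.11 in EpiLC (percentile 17.7) and -1.39 ± 0.08 in nESC (percentile 22.9).

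The remaining members lay near the middle. Dppa2 and Dppa4 were at -0.62 and -0.85 in EpiLC and at 0.16 and -0.26 in nESC, none of them called. Dppa4 in EpiLC was called at -1.05 when libraries were centred on their medians. Spic in nESC, at -0.13, and Jam2 in nESC, at -0.25, were not called. Under a common sum 4 nESC members were called higher in chromatin, Dppa2 (2.05), Dppa4 (1.69), Spic (1.81) and Jam2 (1.71), as was Dppa2 in EpiLC (1.18). The length and GC correction also turned Dppa4, to 0.30 in EpiLC and to a called 1.02 in nESC. Jam2 in EpiLC was called higher in chromatin at 1.09 ± 0.29 (adjusted p = 0.00381, limma, percentile 72.4), on chromatin values of 4.37, 3.16 and 2.54 FPKM against cytoplasm values of 1.85, 1.05 and 1.03 FPKM. That call missed 2-fold without the first chromatin library (0.91), the second cytoplasm library (0.99) or the third one (0.98), with a pseudocount of 1 (0.91), with centred libraries (0.89) and with the length and GC correction (0.82).

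Nucleoplasm and cytoplasm differed less. In EpiLC Dppa5a alone of 8 members was called, lower in nucleoplasm at -1.14 ± 0.31 (adjusted p = 0.00542, limma), where 39.2% of genes were called, 19.1% lower and 20.1% higher. In nESC 4 of 9 were called lower, where 39.9% of genes were called, 19.5% lower and 20.5% higher. These were Tcl1 at -1.27 ± 0.07, Dppa3 at -1.24 ± 0.14, Utf1 at -1.09 ± 0.12 and Dppa5a at -1.07 ± 0.20, with adjusted p between 2.9e-09 and 0.0003. Without the first nESC cytoplasm library Dppa5a missed 2-fold (-0.98), and Utf1 in EpiLC, at -0.95, was called without the third EpiLC cytoplasm library (-1.04). After scaling to a common sum none of these 5 calls held, with values between -0.10 and 0.20, nor did any after the length and GC correction. The common sum gave other calls, all higher in nucleoplasm, for Dppa2 (1.47) and Jam2 (1.37) in EpiLC and for Spic (1.26) and Jam2 (1.94) in nESC. Jam2 in nESC had 0.68 ± 0.07, the highest nucleoplasm fold of the members, and was not called as deposited.

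Within the nucleus, chromatin was set against nucleoplasm. In EpiLC 5 of 8 members were lower in chromatin, where 32.7% of genes were called and 16.7% lower. Dppa5a was at -2.34 ± 0.31 (percentile 0.273), Utf1 at -1.48 ± 0.10, Dppa3 at -1.14 ± 0.22, Dppa2 at -1.08 ± 0.08 and Tdh at -1.04 ± 0.11, with adjusted p between 7.28e-08 and 0.000602 (limma). The last 3 are close to 2-fold, and the call was lost for Dppa3 without the first nucleoplasm library (-0.89), for Dppa2 without the third chromatin library (-0.9995) and for Tdh without the first chromatin library (-0.94). The length and GC correction ended the same 3 calls (Dppa2 -0.77, Dppa3 -0.86, Tdh -0.81), and a pseudocount of 1 ended that of Dppa3 (-0.82). Under a common sum 4 of the 5 were lost, Utf1 (-0.69), Dppa3 (-0.78), Dppa2 (-0.29) and Tdh (-0.25). In nESC 3 of 9 were lower, where 34.7% of genes were called, 17.3% lower and 17.4% higher. They were Dppa5a at -2.96 ± 0.20 (percentile 0.453), Dppa3 at -2.56 ± 0.14 (1.14) and Tcl1 at -1.93 ± 0.07 (4.46). Under a common sum Dppa5a held in both states (-1.54 in EpiLC, -2.25 in nESC), as did Dppa3 (-2.11) and Tcl1 (-1.23) in nESC. Dppa2 in nESC was at 0.37 ± 0.21 and not called.

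Against total RNA, the cytoplasm FPKM of EpiLC was higher for 5 of 8 members, where 30.3% of genes were called, 12.7% higher and 17.6% lower. Tdh led at 1.98 ± 0.11 (adjusted p = 1.44e-07, limma, percentile 99.6), followed by Dppa5a at 1.65 ± 0.31 (98.96), Tcl1 at 1.62 ± 0.19 (98.8), Utf1 at 1.36 ± 0.10 (96.6) and Dppa3 at 1.01 ± 0.22 (87.8). In nESC 2 of 9 were higher and 1 lower, where 35.4% of genes were called, 16% higher and 19.4% lower. Utf1 was at 2.12 ± 0.12 (adjusted p = 1.02e-08, percentile 99.05) and Dppa5a at 1.28 ± 0.20, while Dppa3 was at -1.01 ± 0.14 (adjusted p = 2.52e-05, percentile 19.4). Scaling to a common sum left none of the 5 EpiLC calls, with values from 0.25 to 0.997, and in nESC kept Utf1 at 1.19 and Dppa3 at -1.94 but not Dppa5a at 0.32. The length and GC correction ended the EpiLC calls of Tcl1 (0.87) and Utf1 (0.46) and all 3 nESC calls (Utf1 0.78, Dppa5a 0.90, Dppa3 -0.87). Dppa3 also missed 2-fold with a pseudocount of 1 (0.81 in EpiLC, -0.99 in nESC) and, in nESC, with centred libraries (-0.85). The 2-fold mark was missed by Dppa3 in EpiLC without the first cytoplasm library (0.97) or the second total library (0.84), and in nESC without the second cytoplasm (-0.90), the third cytoplasm (-0.99) or the third total (-0.99) library.

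The balance of chromatin and cytoplasm itself differed between the states for 4 of 9 members, where 11.2% of 13422 genes were called, 6.24% higher and 4.97% lower. This was tested as an interaction in limma, the EpiLC fold minus the nESC fold, with each library centred on its median. Spic is counted among the 9, although it passed the filter only through its nESC libraries. Dppa3 differed by 2.08 ± 0.25 (adjusted p = 0.000139, percentile 99.3), Tcl1 by 1.54 ± 0.26 (adjusted p = 0.00129, 97.6) and Jam2 by 1.42 ± 0.27 (adjusted p = 0.00264, 96.9), all toward chromatin in EpiLC. Utf1 differed by -1.12 ± 0.19 (adjusted p = 0.00132, percentile 3.89), toward cytoplasm in EpiLC. The 3 genes that shifted toward chromatin were at least 2-fold lower in EpiLC in every kind of RNA, and Utf1 was higher in every kind. Level and balance did not go together in all members. Tdh was also at least 2-fold lower in every kind, with a difference of -0.14 that was not called. Dppa2 and Dppa4 were higher in every kind and were not called as deposited. Under a common sum Dppa3 held at 1.48 and Utf1 at -1.27, while Tcl1 (0.99) and Jam2 (0.92) missed 2-fold.

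Low values bear on those folds. Dppa3 and Tcl1 chromatin in EpiLC rested on an estimated 6 to 8 and 31 to 60 fragments a library, and adding 0.5 FPKM before the log draws such folds toward 0. With 0.1 FPKM added instead, Dppa3 differed by 1.81, Tcl1 by 1.27 and Jam2 by 1.64, all called.

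Of the other members, none was called as deposited. Dppa2 had -0.71 ± 0.31 (adjusted p = 0.123), and without nESC chromatin library 3, the low one, it was called at -1.06 (adjusted p = 0.000715, against a range of 0.000715 to 0.265 over its alternatives). Dppa4 had -0.51 ± 0.16 (adjusted p = 0.0319, short of 2-fold) and Tdh -0.14 ± 0.20. Dppa5a had 0.63 ± 0.53, and -0.0265 without the third chromatin and cytoplasm libraries of EpiLC. Spic passed the filter only through its nESC libraries, and its EpiLC values lie under the 0.5 FPKM added before the log, so no difference is read for it.

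**Figure D4:**
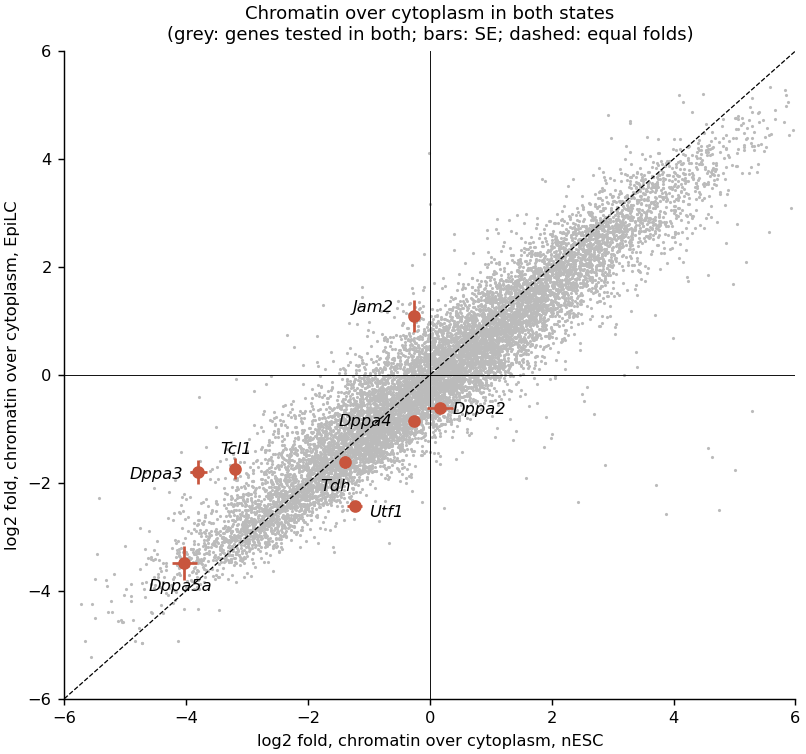
Log2 fold of chromatin over cytoplasm in nESC (horizontal) and EpiLC (vertical) for 11704 genes tested in both states (grey), with 8 members in red and bars of 1 standard error. Axes end at 6 on either side, which leaves out 26 genes. Dppa3, Tcl1 and Jam2 lie above the line of equal folds and Utf1 below it. Dppa5a also lies above the line and Dppa2, Dppa4 and Tdh below it, without a called difference between the states.

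The neighbours of each member in its pathway were read from lists of related genes. In these lists, genes counted as at least 2-fold higher or lower in EpiLC also had no overlap between the libraries of the states. Of 12 germline and 2-cell-stage genes described as dependent on DPPA2 and DPPA4, 7 reached 1 FPKM in total RNA of a state. Among these, 1 was at least 2-fold higher in EpiLC and 4 were lower, where 20.7% of all genes were higher and 14.5% lower. The higher one was the piRNA pathway gene Mael, at 12.1 ± 0.884 FPKM in EpiLC and 1.16 ± 0.252 FPKM in nESC. Zscan4c, a 2-cell-stage zinc finger gene, had 2.09 ± 0.323 FPKM in EpiLC and 5.96 ± 0.493 FPKM in nESC (SD, n = 3 each). Dppa2 and Dppa4 themselves were higher in EpiLC. Within nESC Zscan4c and Zscan4f were chromatin-biased at 3.05 and 2.76, and within EpiLC Mael was cytoplasmic at -2.27.

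Of 10 genes that write, keep or erase DNA methylation around DPPA3, 5 were at least 2-fold higher in EpiLC total RNA (Dnmt3a, Dnmt3b, Dnmt3l, Tet1, Tet3) and 2 lower (Tet2, Zfp57). Of all genes 20.7% were higher and 14.5% lower by that rule. Uhrf1, whose protein DPPA3 binds, had 181 ± 4.29 FPKM in EpiLC and 256 ± 1.21 FPKM in nESC. For chromatin against cytoplasm 3 were higher and 4 lower in EpiLC, and 3 of 9 were higher in nESC, where 29.1% of all genes were higher and 28.4% lower in EpiLC and 31.8% higher in nESC. Tet2 in nESC stood at 3.91 ± 0.11 and Tet1 in EpiLC at 3.72 ± 0.20, far from Dppa3 at the cytoplasmic end.

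Among KH-domain genes of the oocyte related to Dppa5a, 2 of 5 were expressed. Both were at least 2-fold lower in EpiLC in all 4 kinds of RNA, where 11.5% to 15.1% of all genes were lower. Khdc3 had 0.219 ± 0.0945 FPKM in EpiLC total RNA and 23.7 ± 1.47 FPKM in nESC total RNA, and Ooep had 7.37 ± 0.247 FPKM in EpiLC and 39.7 ± 0.334 FPKM in nESC. Both were lower in chromatin than in cytoplasm in nESC, Khdc3 at -2.83 ± 0.09 and Ooep at -1.80 ± 0.18, on the side of Dppa5a.

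Of the TCL1 family, the 5 Tcl1b genes stayed under 1 FPKM in total RNA of both states, while Tcl1b2 reached 1.80 ± 0.291 FPKM in nESC chromatin and 1.23 ± 0.190 FPKM in nESC nucleoplasm (SD, n = 3 each). Mtcp1, the family member on the X chromosome, had 2.92 ± 0.286 FPKM in EpiLC and 3.40 ± 0.505 FPKM in nESC. Its chromatin fold of 2.55 in nESC was opposite in sign to that of Tcl1. Akt1, which encodes a kinase that TCL1 binds, had 12.6 ± 1.17 FPKM in EpiLC and 9.74 ± 1.13 FPKM in nESC.

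Around TDH, 14 genes of threonine, glycine and one-carbon metabolism were all tested. Gcat, the enzyme after TDH in threonine breakdown, had 49.1 ± 1.71 FPKM in EpiLC total RNA and 104.6 ± 5.53 FPKM in nESC total RNA. Amt, a subunit of the glycine cleavage system, had 45.1 ± 1.94 FPKM in EpiLC and 131 ± 5.40 FPKM in nESC. These 2 were at least 2-fold lower in EpiLC total RNA and the other 12 were neither lower nor higher by that rule. Of all genes 14.5% were lower and 20.7% higher. In both states 8 of the 14 were lower in chromatin than in cytoplasm and 2 higher, where 28.4% of all genes were lower and 29.1% higher in EpiLC, and 29.7% lower and 31.8% higher in nESC. In nESC these included Ahcy at -3.01, Gcsh at -2.77 and Gcat at -2.75, and the list's median was -1.53 in EpiLC and -1.51 in nESC.

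A further 7 genes have a described OCT4-SOX2 element, as Utf1 does. In total RNA 5 of the 7 were at least 2-fold lower in EpiLC and none higher, where 14.5% of all genes were lower and 20.7% higher. Lefty1, which encodes an inhibitor of Nodal signalling, was at least 2-fold higher in EpiLC in the 3 fractions, as Utf1 was, with 275 ± 74.5 FPKM in EpiLC cytoplasm and 99.98 ± 9.41 FPKM in nESC cytoplasm. Pou5f1, which encodes OCT4, averaged 867 ± 16.03 FPKM in EpiLC and 994 ± 31.1 FPKM in nESC. Chromatin was lower than cytoplasm for 2 of 7 in EpiLC and 4 of 7 in nESC, where 28.4% and 29.7% of all genes were lower. Pou5f1 was at -3.88, Nanog at -1.94 and Fbxo15 at -1.36 in nESC.

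Around SPIC, 3 of 6 ETS and iron recycling genes reached 1 FPKM in total RNA. Among them 1 was at least 2-fold higher in EpiLC without overlap between libraries, where 20.7% of all genes were higher by that rule. Hmox1, the heme oxygenase gene, had 21.7 ± 0.872 FPKM in EpiLC total RNA and 20.0 ± 1.81 FPKM in nESC total RNA, and Slc40a1, the iron exporter ferroportin, had 7.52 ± 0.269 FPKM in EpiLC and 0.400 ± 0.114 FPKM in nESC. Of 13 JAM and tight junction genes around JAM2, 12 reached 1 FPKM in total RNA. Of these, 7 were at least 2-fold higher in EpiLC (Tjp1, Tjp3, Ocln, Cldn3, Cldn6, Cldn7, Pard3) and Jam3 was lower, at 7.96 ± 0.263 FPKM in EpiLC and 29.5 ± 0.817 FPKM in nESC. By the same rule 20.7% of all genes were higher and 14.5% lower in total RNA. Jam3 shared its direction with Jam2. The balance of chromatin and cytoplasm shifted toward chromatin in EpiLC for 5 of 12 (Cldn3, Cldn4, Cldn6, Cldn7, Tjp3) and the other way for none, where 6.24% of all genes shifted that way.

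The members also differed in how alike their profiles were. Over the 8 group means of log2(FPKM + 0.5), each centred on its mean, Dppa2 and Dppa4 had the closest profiles of any pair of members, with a root mean square difference of 0.25. Spic and Jam2 came next at 0.49, and Dppa3 and Dppa5a followed at 1.0. Among 10262 genes with at least 5 FPKM in a group, 288 lay within 0.5 of Dppa2 and 492 within 0.5 of Dppa4, while 2 lay as near to Spic and 2 to Jam2. The most like genes were Rcbtb2 (0.11) for Dppa4, Arhgap28 (0.20) for Dppa2, Rec114 (0.19) for Dppa5a, Gdap1l1 (0.33) for Utf1, Itpka (0.40) for Tdh, Calcoco2 (0.45) for Tcl1 and Dmgdh (0.45) for Spic. Jam2 was nearest to the naive transcription factor gene Tfcp2l1 (0.48). For Dppa3 the nearest was Cisd3 (0.41), but that rests on 1 nESC total library, in which Cisd3 was listed at 8021 FPKM against 36.0 and 35.5 FPKM in the other two. Next to Dppa3 were Krt42 (0.60) and Marc2 (0.64).

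Gene structure and copies set limits on some of these levels. Dppa5a is the shortest member at 619 exonic bp and Jam2 the longest at 6045. Of the 31-base words of the longest transcript, 57.2% of Dppa5a, 44.3% of Dppa4, 33.7% of Dppa2, 31.8% of Dppa3 and 24.7% of Tdh also occur in transcripts of other genes, among them the processed pseudogenes Gm14058 (Dppa4), Gm9788 (Dppa2), Dppa3-ps (Dppa3) and Gm13929 (Tdh). For Dppa5a the gene that shares most is the protein-coding gene Pigp, with 22.75% of the words and mean levels of 11.8 to 24.1 FPKM over the 8 groups, and the unprocessed pseudogenes Dppa5b and Dppa5c share 19.5% each. For Tcl1, Utf1 and Spic there were none and for Jam2 0.115%. FPKM of the 5 genes with copies are therefore uncertain where reads could be placed on either. Tdh also shares 66 exonic bp with Gm17232 on the opposite strand, and the use of strand in counting is not given in the sources used here.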

How the data were processed

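RNA of each fraction, depleted of ribosomal RNA, went into stranded libraries for HiSeq sequencing, per the labels' protocols. The deposited tables hold FPKM values; the submitters' processing notes name TopHat2, Cuffnorm and mm10 (GRCm38) as what the authors used. Versions, annotation, library normalization and strand setting: not given in the sources used here. Each state has its own table of 12 libraries, normalized separately, so tests stayed within a table, and EpiLC and nESC levels are given as ratios of mean FPKM, with no test. Symbols came from GENCODE M21 (29586 of 29759 genes).

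Fractions were compared with limma 3.58.1 (R 4.3.3; moderated tests with a mean trend, two-sided) after adding 0.5 FPKM and taking log2. Genes averaging 1 FPKM or more in a table were tested, all 4 groups in 1 model. Calls needed 2-fold and an adjusted p below 0.05. The interaction used chromatin and cytoplasm libraries of both states, centred on their medians. Depth was estimated from the steps between low values, of which 89.7% to 95.7% per library lay within 10% of a whole multiple. Low values carry counting error that was not computed. The fits were tested on simulated data.

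The members and lists were chosen with earlier results of these data known. All 9 members are named. Of each related list, up to 3 tested genes were named by the largest chromatin fold in the state with the higher total level, and other genes named beside them were chosen after their values were seen. The genes most like a member had the smallest root mean square difference of centred group means. The alternatives tried changed the pseudocount (0.1, 1), the filter (none, 5 FPKM), the scaling (median, common sum), the trend, the groups fitted, isolated zeros, a replicate block and the libraries left out. A correction for exonic length and GC content was added after seeing the data. Promoters are from RefSeq. A gene of a related list is not reported here.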

Additional observations from a re-analysis of the deposited data

Results flagged for a closer look

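A set of 4 members differed between the states in their balance of chromatin and cytoplasm RNA by a test of the difference itself (limma interaction, EpiLC fold minus nESC fold on the log2 scale). The interaction was fitted on libraries centred on their medians, and the folds given beside it were not. Subtracting those folds therefore does not give the difference exactly. For Dppa3 the difference was 2.08, with folds of -1.80 in EpiLC and -3.80 in nESC. Its EpiLC chromatin values lie under the 0.5 FPKM added before the log, and the difference was smaller with less added. For Tcl1 it was 1.54, with folds of -1.74 in EpiLC and -3.20 in nESC. For Jam2 it was 1.42, with folds of 1.09 in EpiLC and -0.25 in nESC. For Utf1 it was -1.12, with folds of -2.43 in EpiLC and -1.23 in nESC. Under a common sum the differences of Dppa3 and Utf1 held, while those of Tcl1 and Jam2 missed 2-fold. The Jam2 fold in EpiLC ranged from 0.91 to 1.29 with 1 library left out, so its own call did not always hold. The level of each gene differed as well. Dppa3, Tcl1 and Jam2 were lower and Utf1 higher in EpiLC than in nESC in every fraction, and the part of the level in the difference was not tested. Tdh was lower and Dppa2 and Dppa4 were higher in every fraction too, without a called difference in balance.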

How the results depend on the processing

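Across the 9 tested comparisons, member values kept their direction and their side of the thresholds in all cases without a filter, with a mean of at least 5 FPKM, without trend, with only the 2 groups compared, without centring of the interaction and with isolated zeros as missing (none of the members has one), in 76 of 77 cases with a pseudocount of 0.1, in 73 of 77 with a pseudocount of 1 and in 497 of 516 with 1 library left out. The states' levels changed sign under no alternative run. With the replicate number as a block, 77 of 77 kept their call, and 6 members were called for chromatin against cytoplasm in EpiLC and 4 in the interaction, as without it, with 7386 and 1406 genes called in all against 7386 and 1504. Libraries sharing a number did not deviate together (correlations from -0.219 to 0.177, no comparison with all 3 pairs over 0.1). Such correlations cannot tell whether these libraries share a culture, because noise of each library could hide it.

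Counts of members called moved as follows. In EpiLC, chromatin against cytoplasm gave 3 in place of 6 with a mean of at least 5 FPKM (5 members tested), 3 with a common sum (2 higher, 1 lower) and 3 corrected for length and GC content. Nucleoplasm against cytoplasm gave 2 in place of 1 when centred, 2 with a common sum (both higher, where the 1 was lower), 0 when corrected, 2 without both EpiLC libraries numbered 3, and 1 to 2 with 1 library left out (2 without the third EpiLC cytoplasm library). Chromatin against nucleoplasm gave 2 in place of 5 with a common sum (1 higher, 1 lower) and 2 when corrected. Cytoplasm against total gave 3 in place of 5 at 5 FPKM, 0 with a common sum and 3 when corrected. In nESC, nucleoplasm against cytoplasm gave 2 in place of 4 with a common sum (both higher, where the 4 were lower) and 0 when corrected, and cytoplasm against total gave 1 in place of 3 when corrected, the 1 being Spic (1.34), with all 3 original calls lost. In nESC chromatin against cytoplasm, a common sum called 4 members higher and 3 lower in place of 0 and 5. Of all genes, the correction called 3343 in place of 5035 and 2151 in place of 3890 in EpiLC (nucleoplasm against cytoplasm, cytoplasm against total) and 2511 in place of 4453 in nESC (cytoplasm against total), and a mean of 5 FPKM called 838 in place of 1504 in the interaction, where fewer genes were tested.

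Signs that turned with a common sum were, in EpiLC, Dppa2 (1.18), Dppa4 (0.98) and Tdh (0.21) for chromatin against cytoplasm, Dppa3 (0.15), Dppa4 (0.82), Tcl1 (0.14), Tdh (0.46) and Utf1 (0.0865) for nucleoplasm against cytoplasm, Dppa4 (0.16) for chromatin against nucleoplasm, and Dppa2 (-0.86), Dppa4 (-0.69) and Jam2 (-0.15) for cytoplasm against total. In nESC they were Dppa4 (1.69), Tdh (0.59), Utf1 (0.67), Spic (1.81) and Jam2 (1.71) for chromatin against cytoplasm, Dppa2 (0.98), Dppa4 (0.83), Dppa5a (0.20), Tdh (0.35) and Utf1 (0.13) for nucleoplasm against cytoplasm, Tdh (0.23), Utf1 (0.54) and Spic (0.55) for chromatin against nucleoplasm, and Tdh (-0.35), Spic (-0.47) and Jam2 (-0.80) for cytoplasm against total. In the interaction Spic turned (-1.25), but no difference is read for it. A common sum put the median log2 fold of all genes between 0.693 and 1.85 for comparisons of nuclear fractions and at -0.715 and -0.717 for cytoplasm against total, where it lay between -0.150 and 0.163 as deposited. It moved the share of calls that were higher to 92.7% and 91.8% for chromatin against cytoplasm, 95.9% and 97.9% for nucleoplasm against cytoplasm, 90.6% and 84.1% for chromatin against nucleoplasm and 0.935% and 4.28% for cytoplasm against total (EpiLC and nESC), and to 38.7% in the interaction.

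With the length and GC correction the sign turned in EpiLC for Dppa4 (0.30, 0.59 and -0.21 for chromatin against cytoplasm, nucleoplasm against cytoplasm and cytoplasm against total) and for Tcl1 (0.23), Tdh (0.30) and Utf1 (0.37) in nucleoplasm against cytoplasm. In nESC it turned for Dppa4 (1.02) and Utf1 (0.46) in chromatin against cytoplasm, Dppa4 (0.35), Utf1 (0.37) and Spic (-0.51) in nucleoplasm against cytoplasm, Utf1 (0.0907) in chromatin against nucleoplasm, and Dppa2 (0.34) and Tdh (-0.10) in cytoplasm against total. Centring turned Dppa2 (-0.10) for chromatin against cytoplasm, Spic (-0.21) for nucleoplasm against cytoplasm and Dppa2 (0.0037) for cytoplasm against total in nESC. With 1 library left out, Dppa2 in nESC chromatin against cytoplasm ranged from -0.0253 to 0.52 and Spic in nESC nucleoplasm against cytoplasm from -0.0388 to 0.0610. Dppa5a in the interaction was -0.0265 without both EpiLC libraries numbered 3. The cause of these changes was not tested. Depth limits the members at a few fragments, Dppa3 in chromatin of both states and Spic in EpiLC.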

Other observations

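Total RNA and the fractions did not rank the members alike. In EpiLC the level in total RNA was 0.236 of the highest fraction for Jam2, 0.247 of the highest fraction for Tdh, 0.254 for Tcl1, 0.316 for Dppa5a, 0.388 for Utf1 and 0.809 for Dppa4, where the median gene had 0.566. In nESC the ratio was 0.213 for Utf1, 0.409 for Dppa5a, 0.508 for Tcl1, 0.652 for Tdh, 1.28 for Dppa4 and 2.02 for Dppa3, where the median gene had 0.545. The ratio was lower in EpiLC than in nESC for 7 of the 8 members that have one in both, Utf1 being the exception. The share of all genes with a lower ratio in EpiLC was not computed, so this count is not read as particular to the members. Total RNA lay above every fraction for 4.76% of all genes in EpiLC and 13.9% in nESC. The other Dppa5 copies, and the pseudogene copies of Dppa2, Dppa3, Dppa4 and Tdh, were not analysed here.

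Of other cell types the cultures could hold, the 8 primitive endoderm markers summed to 6.50 to 7.81 FPKM in EpiLC total RNA and 1.24 to 4.42 FPKM in nESC total RNA, and the 7 trophectoderm markers to 3.21 to 3.77 FPKM in EpiLC and 2.19 to 2.69 FPKM in nESC. The 2-cell-like list summed to 97.1 to 100.3 FPKM in EpiLC and 195 to 210 FPKM in nESC, nearly all of it Eif1a.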
